A study of Mus musculus with 14 samples.

Results

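The genes described here are 32 pluripotency and early epiblast genes, listed by name and found through their Entrez identifiers in the authors' comparisons of GLI1-induced with control cultures. Of 16060 genes in at least 1 of the 2 comparisons, 27 of the 32 had a row at day 5 (D5) and 24 at day 10 (D10), and 23 had a row on both days. Tdgf1, Dppa2, Tdh and Gdf3 were present at D5 and had no row at D10, and Nr5a2 was present at D10 alone. Dppa3, Nr0b1, Prdm14 and Tcl1 had no row on either day. No source used here gives the filter behind the rows, so a missing row sets no level for a gene, and counts below cover the members that passed it.

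The cultures came from mouse embryonic stem cells of the GLI1-FTA line in the A2Lox.cre strain, which were differentiated toward neurons. Induced cultures received doxycycline at 500 ng/ml for 48 h, from day 3 to day 5, and were then washed, while the controls, which carry the same transgene, were untreated. There were 4 induced and 4 control libraries at D5, labelled neural progenitor cells, and 3 of each at D10, labelled immature neurons. GLI1 is a transcription factor at the end of the Hedgehog pathway. The Gli1 row stood at a log2 fold change of 4.79 at D5 and 0.57 at D10 in the authors' deposited table. The D10 value did not pass by the authors' test (unadjusted p = 0.00161, adjusted p = 0.780). Reads of the transgene and of the endogenous gene in this row were not told apart. The drug and GLI1 were given together and cannot be told apart. The sources hold group comparisons only, so no value per library, depth or number of libraries in each direction can be given, and the labels do not say whether replicates were separate cultures. In such bulk samples fewer cells of a type and less RNA per cell cannot be told apart.

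Pluripotent cells of the early mouse embryo move from a naive state, held by factors such as Nanog, Esrrb, Klf4 and Tfcp2l1, to a formative and then primed epiblast state, before they choose a germ layer. Pou5f1 (OCT4) is needed throughout and is normally lost as neural tissue forms. The new DNA methyltransferases Dnmt3a and Dnmt3b, with the cofactor Dnmt3l, set methylation during that transition, and the Tet enzymes oxidise it. Lin28a, Lin28b and Trim71 encode RNA-binding proteins first known from timing (heterochronic) mutants of worms. LIN28 proteins block the making of let-7 microRNAs, and let-7 in turn represses Lin28 and Trim71, a switch that closes as cells mature.

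The let-7 and miR-125 sequences are shown because their target words are what Lin28a, Lin28b and Trim71 share beyond their names. All 9 let-7 family members read from RefSeq (GRCm38.p6), let-7a, b, c, d, e, f, g, i and miR-98, have the same seed, bases 2 to 8, given in capitals. Levels of the mature microRNAs themselves were not analysed here.
let-7a-5p: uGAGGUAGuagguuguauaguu
let-7g-5p: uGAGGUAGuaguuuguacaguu
miR-98-5p: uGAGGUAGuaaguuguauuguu
miR-125b-5p: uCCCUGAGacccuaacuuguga

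The word complementary to the let-7 seed, CTACCTC, was searched on the sense strand of the longest annotated 3′ UTR of each gene (GENCODE M21, GRCm38). It occurred in 6 of the 32 members and in 9.02% of 21037 annotated 3′ UTRs. Trim71 and Lin28b held 4 such words each and Lin28a held 2, while Sall4, Esrrb and Gdf3 held 1 each. Among 3′ UTRs within 20% of the same length, 0.504% held as many as Trim71, 0.236% as many as Lin28b and 2.10% as many as Lin28a. The miR-125 word, CTCAGGG, occurred in 4 members, namely Lin28a, Lin28b and Trim71 once each and Tfcp2l1 2 times, and in 13.1% of all 3′ UTRs. At like length 24.6% of 3′ UTRs held as many as Lin28a, 37.3% as many as Trim71 and 13.4% as many as Tfcp2l1, with Lin28b between the first pair. Only those 3 RNA-binding protein genes among the 32 members held both words, and 1 miR-125 word was not unusual at their lengths. A match is a description of the letters and no measurement of repression. One let-7 word and its flank (word in capitals) from each of the 3 genes reads as follows, all on the minus strand of GRCm38, at chr4:134005189-134005211, chr10:45381022-45381044 and chr9:114512472-114512494.
Lin28a: gcacagcctgttgaaCTACCTCa
Lin28b: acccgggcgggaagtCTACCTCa
Trim71: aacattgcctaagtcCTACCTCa

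The first comparison asks how the members' levels differed between the neural progenitor and the immature neuron stage. Of the 23 members with rows on both days, 10 averaged at least 2-fold lower at D10, 4 at least 2-fold higher and 9 lay between. Over all 14792 genes with both rows, 5.69% were at least 2-fold lower and 12.2% at least 2-fold higher. The median difference of the average log2 CPM (read counts scaled to a common library total), D10 minus D5, was -0.77 for the members and 0.0053 for all genes. These levels average induced and control libraries, the days were normalized separately, and the sources used here give no value per library, so the differences have no replicate error and no test. The lower members were core, Dppa, RNA-binding protein and methyltransferase genes, and each of the 4 higher members was a naive factor. On levels derived for the control libraries alone the higher members were 3, with Klf5 at 0.86. The lower members were 11 on those levels, with the naive factor Nanog at -1.02.

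**Figure D1:**
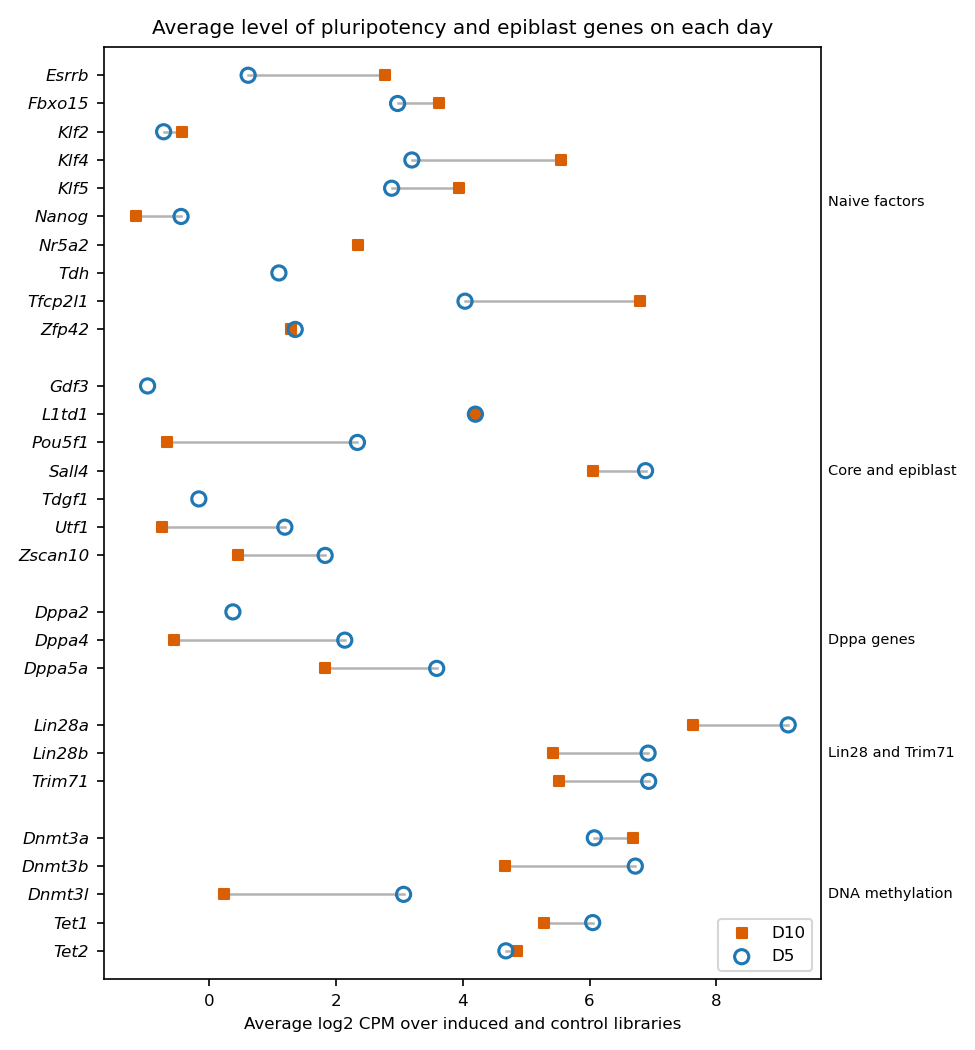
Average log2 CPM of each member at D5 (open circles) and D10 (squares) over induced and control libraries, grouped by role, for the 28 members with at least 1 row. Pou5f1, Dppa4 and Dnmt3l moved furthest to the left, and Tfcp2l1, Klf4 and Esrrb furthest to the right; levels are not corrected for gene length, so rows should not be ranked against each other.

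Pou5f1 (Entrez 18999) had the largest difference downward in these averages. The authors' deposited table gave it an average log2 CPM of 2.34 at D5 and -0.67 at D10, 8.04-fold lower. On derived group levels it was 13.2-fold lower in control and 4.85-fold lower in induced cultures, and among induced cultures Dnmt3l (-2.76) and Dppa4 (-2.53) differed by more than Pou5f1 (-2.28). Utf1, a chromatin factor of pluripotent cells, had averages of 1.19 (D5) and -0.74 (D10) by the authors' deposited table. For Zscan10, a zinc-finger partner of OCT4, the authors' deposited table gave 1.83 and 0.46. The 5 core and epiblast genes with both rows had a median difference of -1.37. The zinc-finger factor Sall4 differed by -0.83 and L1td1, an RNA-binding protein gene derived from a LINE-1 element, by -0.012. For L1td1 the derived group levels went opposite ways, by -0.30 in control and 0.32 in induced cultures. The co-receptor gene Tdgf1 (Cripto) and the TGF-beta family gene Gdf3 were already low at D5 (-0.16 and -0.97 by the authors' deposited table) and had no row at D10.

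Dppa4 and Dppa2 are neighbouring SAP-domain genes whose products act together on chromatin. By the authors' deposited table Dppa4 averaged 2.14 at D5 and -0.55 at D10, 6.46-fold lower, and Dppa2 averaged 0.37 at D5 and had no row at D10. Dppa5a (Entrez 434423), which encodes a KH-domain RNA-binding protein, had averages of 3.59 and 1.83 by the authors' deposited table, 3.39-fold lower. On derived group levels Dppa5a was 5.47-fold lower in control and 2.08-fold lower in induced cultures. Rows of the Dppa genes are uncertain, since reads of near-identical copies could be split. Of the 50-base windows of the longest annotated transcript, 38.6% for Dppa5a, 35.9% for Dppa4 and 29.1% for Dppa2 also occur in annotated transcripts of other genes. The share was 15.0% for Tdh, 12.5% for Tdgf1, 11.5% for Dnmt3b (all with Dnmt3c) and 9.17% for Zfp42. For Pou5f1, 15.0% of windows lie opposite to the antisense transcript Gm19553.

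The 3 RNA-binding protein genes with let-7 words differed between the days by nearly the same amount. In the authors' deposited table Lin28a averaged 9.13 at D5 and 7.62 at D10, a 2.84-fold difference. Lin28b averaged 6.92 and 5.43 by the authors' deposited table, a 2.81-fold difference. Trim71 averaged 6.93 and 5.52 by the authors' deposited table, a 2.66-fold difference. All 3 still had rows well above the lowest average of the D10 data (-1.43). The other members with 1 let-7 word did not share this value, with Sall4 at -0.83, Esrrb at 2.15 and Gdf3 with no D10 row. Members without a let-7 word ranged from -3.01 (Pou5f1) to 2.77 (Tfcp2l1), and Zscan10 among them lay close by at -1.37. A part of let-7 in these levels was not tested.

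The methylation genes differed among themselves. Dnmt3b (Entrez 13436) had averages of 6.72 (D5) and 4.67 (D10) by the authors' deposited table, 4.15-fold lower. For Dnmt3l the authors' deposited table gave 3.07 and 0.23, 7.15-fold lower. Dnmt3a, the methyltransferase retained in neurons, went the other way, with 6.07 and 6.69 by the authors' deposited table, 1.53-fold higher. The authors' deposited table gave Tet1 averages of 6.05 (D5) and 5.27 (D10), and Tet2 averages of 4.68 and 4.86. Thus 2 of these 5 genes were at least 2-fold lower and 0 at least 2-fold higher.

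In these averages the naive factors as a group did not follow the core genes. Of the 8 with both rows, 4 averaged at least 2-fold higher at D10 and 0 at least 2-fold lower, with a median difference of 0.86. Tfcp2l1, a naive factor also made in kidney and other epithelia, averaged 4.03 and then 6.80 by the authors' deposited table, 6.80-fold higher. Klf4, also made in differentiated epithelia, averaged 3.20 and then 5.55 by the authors' deposited table, 5.12-fold higher. The authors' deposited table gave Esrrb, an orphan nuclear receptor, 0.61 and 2.77, and Klf5 2.88 and 3.95. Nr5a2, a nuclear receptor that also acts in endoderm and liver, averaged 2.35 at D10 by the authors' deposited table and had no row at D5. Fbxo15, an F-box gene and classical OCT4 target, differed by 0.66 and Klf2 by 0.28, while Zfp42 (Rex1) differed by -0.07 and Nanog by -0.70. The derived Zfp42 difference was -0.35 in control and 0.29 in induced cultures. For Nanog it was -1.02 in control and -0.31 in induced cultures, so Nanog was 2.03-fold lower on control levels. In the authors' deposited table Nanog averaged -0.44 at D5 and -1.15 at D10, and Klf2 -0.72 and -0.43, so both were near the bottom of the listed range on both days.

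Markers of endoderm-like, epithelial, neuronal, trophoblast and mesoderm cells were mostly higher at D10, as the 4 higher naive factors were. Of the 11 endoderm markers with both rows, 6 were at least 2-fold higher at D10 and 0 at least 2-fold lower, with a median difference of 1.12. Their summed control level, derived here from averages and fold changes, was 5819 CPM over 11 genes at D5 and 14765 CPM over 12 genes at D10. The matrix genes Col4a1, Lama1 and Sparc had the highest averages of that list on both days and weigh most in these sums. The epithelial genes Cdh1 and Epcam were higher at D10 by 2.30 and 2.47 in the averages of the authors' deposited table. Of the 7 neuron markers, 5 were at least 2-fold higher at D10, with a median of 1.54. Of 6 trophoblast markers with both rows, 3 were at least 2-fold higher and 0 at least 2-fold lower, with a median of 1.30. Of 3 mesoderm markers with both rows, 2 were at least 2-fold higher and 0 at least 2-fold lower, with a median of 1.28. Neural progenitor markers differed the other way. Of these 6 genes, 4 were at least 2-fold lower at D10 and 0 at least 2-fold higher, with a median of -1.20. The part of any of these cells in the members' levels was not tested. Germ cell markers were few: 5 of 10 had no row on either day (Dazl, Nanos3, Tex101, Stk31 and Mov10l1), and the others averaged at most 1.82 at D5 in the authors' deposited table.

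**Figure D2:**
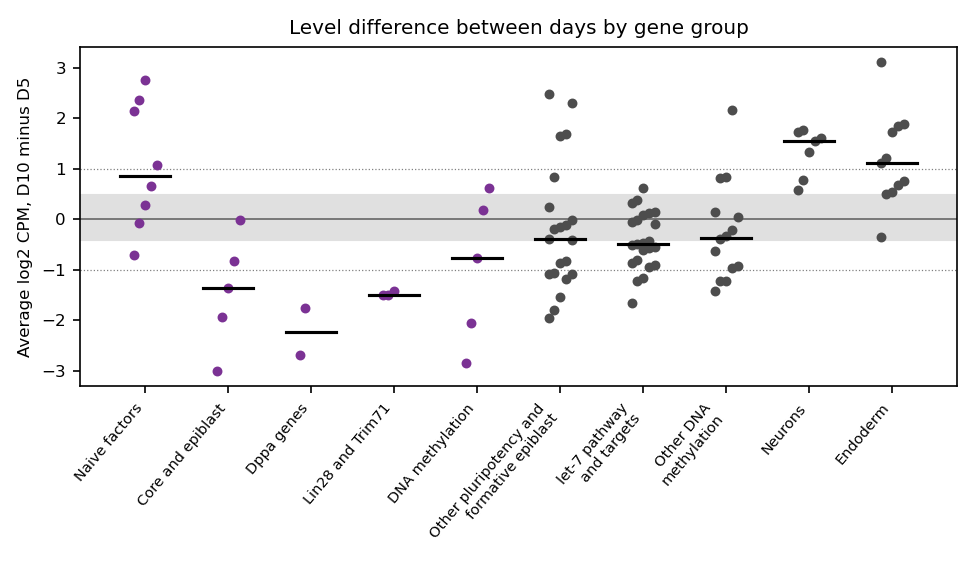
Difference of the average log2 CPM, D10 minus D5, for members by role (purple) and for other gene lists (dark grey), 1 point per gene with rows on both days and a bar at the list median. The shaded band spans the quartiles of all genes (-0.40 to 0.49), the solid line is their median and the dotted lines mark 2-fold; Lin28a, Lin28b and Trim71 lie together between -1.51 and -1.41, and naive factors reach 2.77.

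The second comparison asks how the members responded while GLI1 was induced. At D5, 4 of the 27 members were called at an adjusted p under 0.05 by the authors' test, all lower in induced cultures, which is 14.8% of them. Over all genes at D5 4.44% were called, 2.10% lower and 2.34% higher. The median log2 fold change was -0.32 for the members and 0.0015 for all genes, and 21 of 27 members lay below 0. At an unadjusted p under 0.05 there were 9 lower and 1 higher member, or 33.3% and 3.70%, against 5.83% and 4.83% of all genes. Members were measured less precisely than most genes, with a median implied standard error (SE; the log2 fold change divided by its z value, derived here) of 0.23 against 0.13.

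Dppa5a had the smallest p. Its derived levels were 15.0 CPM in control and 9.07 CPM in induced cultures at D5, 1.65-fold lower, and its log2 fold change in the authors' deposited table was -0.73 (adjusted p = 0.00192, implied SE 0.18). Dnmt3b was derived at 121 CPM in control and 89.5 CPM in induced cultures, 1.36-fold lower, with a log2 fold change of -0.44 in the authors' deposited table (adjusted p = 0.00422, implied SE 0.11). L1td1 was derived at 21.8 and 15.0 CPM, 1.45-fold lower, with -0.54 in the authors' deposited table (adjusted p = 0.0105, implied SE 0.15). These 3 fell by less than 2-fold. Tdh, the threonine dehydrogenase on which mouse embryonic stem cells depend for one-carbon units, was derived at 2.75 and 1.54 CPM, 1.78-fold lower, with -0.83 in the authors' deposited table (adjusted p = 0.0307, implied SE 0.26). Tdh did not pass when the p-values were rescaled within expression bins. Its adjusted p, from the rescaled values of the authors' deposited table, was then 0.201. With Holm's adjustment 0 members passed.

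**Figure D3:**
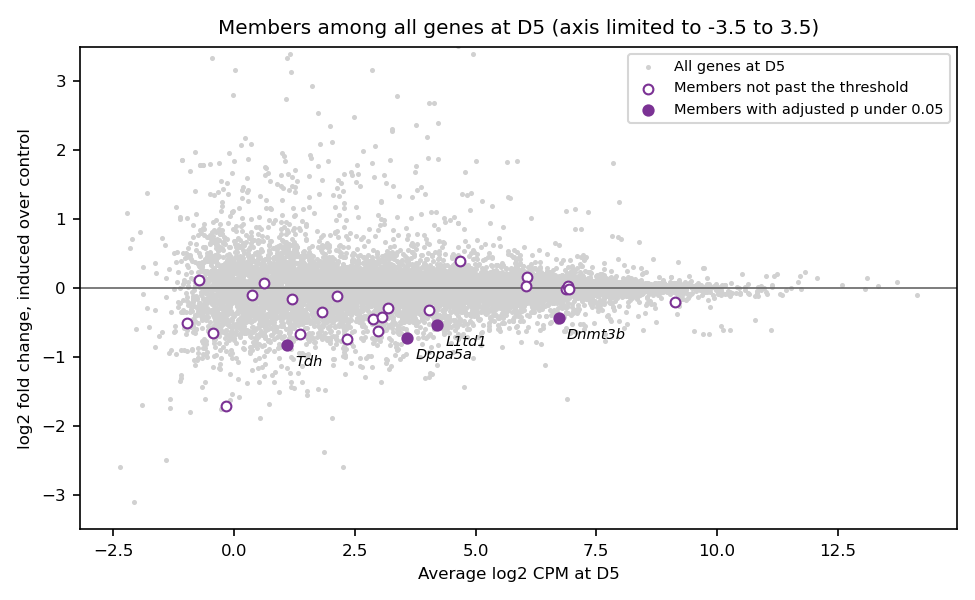
Log2 fold change of GLI1-induced over control cultures against average log2 CPM at D5, with all genes in grey (19 genes beyond 3.5 in size are not drawn) and members as circles, filled where the adjusted p was under 0.05. The 4 filled circles (Tdh, Dppa5a, L1td1, Dnmt3b) lie below 0 at levels from 1.10 to 6.72, and 21 of 27 members lie below 0.

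Members just outside the threshold lay on both sides of 0. Tet2 stood at 0.40 in the authors' deposited table (adjusted p = 0.0526, implied SE 0.13), the nearest of the uncalled members, and passed upward with rescaled p-values (adjusted p = 0.0119). Tdgf1 had the lowest value of the members, -1.72 in the authors' deposited table (adjusted p = 0.0616, implied SE 0.58), from derived levels of only 1.37 CPM in control and 0.416 CPM in induced cultures. Fbxo15 at -0.62 (adjusted p = 0.103), Zfp42 at -0.66 (0.122) and Pou5f1 at -0.75 (0.134) did not pass in the authors' deposited table. All 7 core and epiblast genes lay below 0, with a median of -0.51 and 1 call.

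The heterochronic genes showed no call at D5. In the authors' deposited table Lin28a stood at -0.20 (adjusted p = 0.467, implied SE 0.10), Lin28b at 0.025 (implied SE 0.11) and Trim71 at -0.016 (implied SE 0.12). Lin28a, at a derived 600 CPM in control and 523 CPM in induced cultures, passed when the p-values of the authors' deposited table were rescaled (adjusted p = 0.00678). Among the methylation genes, Dnmt3l stood at -0.43 (implied SE 0.30), Dnmt3a at 0.16 (implied SE 0.10) and Tet1 at 0.026 (implied SE 0.09) in the authors' deposited table. By the authors' deposited table the Krüppel-like factors Klf5, Klf4 and Klf2 stood at -0.45, -0.29 and 0.11, with implied SEs of 0.30, 0.23 and 0.62. Tfcp2l1 stood at -0.32, Nanog at -0.66 and Esrrb at 0.07 in the authors' deposited table, and none of these 3 passed. Dppa4 at -0.12 and Dppa2 at -0.10 did not pass in the authors' deposited table either, beside the lower Dppa5a.

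Markers of other cells were also called at D5, in both directions. Of 11 endoderm markers with a row, 5 were lower (Gata4, Gata6, Sox7, Dab2 and Sparc) and 1 was higher (Foxa2, also a floor plate gene) by the authors' deposited table. In all, 8 of the 11 lay below 0 and 3 above. Those above included Ttr at 0.54 (adjusted p = 0.0950) and Afp at 0.86 (adjusted p = 0.258) in the authors' deposited table, which did not pass. The median of the 11 was -0.61. The derived sum over these 11 was 5819 CPM in control and 3839 CPM in induced cultures. Col4a1, Lama1 and Sparc weigh most in it, with averages of 11.1, 10.3 and 9.83 in the authors' deposited table. Col4a1 and Lama1 were not called by the authors' test (adjusted p = 0.0664 and 0.125). Of 7 neuron markers 3 were lower and 0 higher, and the 6 neural progenitor markers held 0 calls, with a median of 0.041. Of 5 germ cell markers with a row 0 were called (median -0.28). Of 6 trophoblast markers with a row 0 were called, and all 6 lay below 0 (median -0.45). Elf5, Hand1 and Ascl2 of that list had no row on either day. Of 7 mesoderm markers 3 had a row, with T higher and Pdgfra lower in the authors' deposited table. A part of these cells in the lower members was not tested.

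Among lists of non-members from the same processes, the pluripotency and let-7 lists were called in shares like that of the members. The DNA methylation list was not. The share was 14.8% of the further pluripotency and formative epiblast genes, 13.0% of the let-7 list and 0% of the DNA methylation list. It was 14.8% for the members and 4.44% for all genes. The calls differed in direction between the lists. Of 27 further pluripotency and formative epiblast genes with a row, the authors' deposited table called 1 higher and 3 lower. The median of the 27 was -0.18. The higher gene was Pou3f1 (OCT6), a factor of the primed epiblast and of neural tissue, at 0.77 in the authors' deposited table (adjusted p = 0.0255), and the lower genes were Lefty2, Cdh1 and Epcam. Lefty2 averaged only -2.07 in the authors' deposited table, near the lowest average of the D5 data (-2.35). Cdh1 and Epcam are the epithelial genes named above. Of 23 genes of the let-7 pathway and its targets 3 were higher and 0 lower, namely Ccnd1 at 0.67, Arid3a at 0.43 and the uridylyltransferase gene Tut4 at 0.32 in the authors' deposited table. TUT4 adds uridines to let-7 precursors bound by LIN28. Of 14 further DNA methylation genes 0 passed in either direction at an adjusted or an unadjusted p under 0.05.

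Average levels of the same lists differed in both directions between the days. Hmga1 differed by -1.65, Igf2bp1 by -1.23, Hmga2 by -1.17 and Igf2bp3 by -0.95, all known let-7 targets, but the other 19 genes of that list lay between -0.90 and 0.61, and the list median was -0.49. Dnmt1, the maintenance methyltransferase, differed by -1.23, its partner Uhrf1 by -1.43 and the remodeller Hells by -1.22, while Gadd45b differed by 2.17. Of the 21 further pluripotency and epiblast genes with both rows, 7 were at least 2-fold lower and 4 at least 2-fold higher at D10, with a median of -0.40. The FGF-induced factor gene Etv4 differed by -1.96 and Gbx2 by -1.80, against 2.47 for Epcam and 2.30 for Cdh1.

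The third comparison asks what remained 5 days after washout. At D10, 0 of 24 members passed by the authors' test, and 0.0826% of all genes did. With rescaled p-values 0 members passed as well. At an unadjusted p under 0.05 there was 1 higher and 0 lower member (4.17% and 0%), against 0.883% and 0.648% of all genes. That member was Dppa5a, at 0.67 in the authors' deposited table (unadjusted p = 0.0287, adjusted p = 1, implied SE 0.31), from derived levels of 2.74 CPM in control and 4.35 CPM in induced cultures. The median over the 24 members was 0.066, with 17 above 0 and 7 below. Pou5f1 stood at 0.70 in the authors' deposited table with an implied SE of 0.42, from derived levels of 0.480 and 0.779 CPM. Dnmt3b stood at 0.20, Lin28a at 0.05, Lin28b at 0.09 and Trim71 at 0.10 in the authors' deposited table, with implied SEs from 0.13 to 0.17. For Nanog and Klf2 the deposited p was 1, so no SE could be derived. Even together, the shares of all genes at an unadjusted p under 0.05 were below the share that evenly spread p-values would give. The deposited D10 p-values were thus conservative, and the implied SEs at D10 may be too wide. The test of the difference below inherits this.

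**Figure D4:**
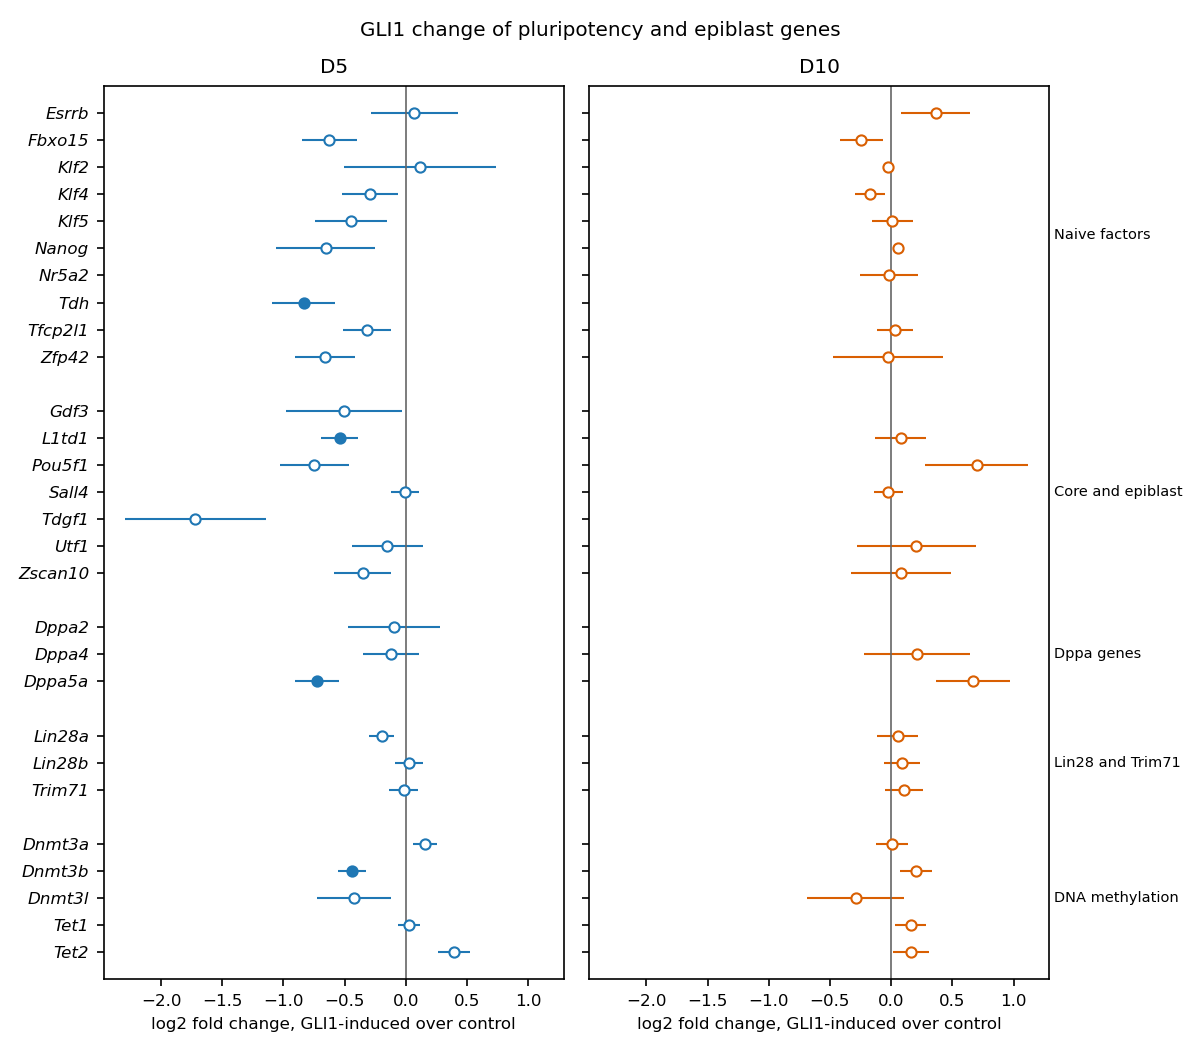
Log2 fold change of GLI1-induced over control cultures for each member at D5 (left) and D10 (right), with bars of 1 implied SE and filled circles where the adjusted p was under 0.05. At D5 4 circles are filled, all left of 0, and at D10 none is; Dppa5a lies at -0.73 at D5 and 0.67 at D10, and Nanog and Klf2 have no bar at D10.

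The difference of the GLI1 change between the days was computed for each of the 14792 genes with both rows. Its test used the implied SEs with a normal reference, two-sided and Benjamini-Hochberg adjusted. Genes that lacked an implied SE at D5 or D10, Nanog and Klf2 among the members, could not be tested and were counted as not passed. The normal reference is an approximation, since each group had at most 4 libraries. The difference passed for 2 of 23 members (8.70%), both more positive at D10, against 1.24% of all genes, or 0.379% in that direction. For Dppa5a the authors' deposited table gave -0.73 at D5 and 0.67 at D10, a difference of 1.39 with an SE of 0.35 (adjusted p = 0.00898). For Dnmt3b the authors' deposited table gave -0.44 and 0.20, a difference of 0.64 with an SE of 0.17 (adjusted p = 0.0232). Pou5f1, also from the authors' deposited table, differed by 1.45 with an SE of 0.51, which missed the threshold (adjusted p = 0.232). L1td1, from the same values of the authors' deposited table, differed by 0.62 with an SE of 0.26 and missed it too (adjusted p = 0.510). With SEs from rescaled p-values of the authors' deposited table L1td1 passed (adjusted p = 0.0250). In 19 of 23 members the value was more positive at D10 than at D5, and 12 went from below 0 to above 0. Over all genes 7793 of 14792 were more positive at D10, and 3129 went from below 0 to above 0. Lin28a, Lin28b and Trim71 differed by 0.25, 0.06 and 0.12, with SEs of 0.20, 0.18 and 0.20.

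Promoters are shown for Dnmt3b and L1td1, which were lower together at D5 and are in the RefSeq promoter table. The table (GRCm38.p6) held 30 start sites of 22 members, and the 250 bases before each were searched on both strands. The GLI word GACCACCCA was in 0 of these 22 members and in 0.225% of 32851 promoters of that length. The octamer ATGCAAAT, read by OCT4, was in 1 member (Zfp42) and in 1.60% of all promoters. The KLF word GGGCGTGG was in 5 members (L1td1, Nanog, Nr5a2, Tdgf1 and Tfcp2l1) and in 4.79% of all. A member was counted if any of its start sites held the word, while the shares of all promoters count each start site. The member counts and those shares are therefore not on the same basis. Dnmt3b has 21 CpG pairs in its window and L1td1 has 11, against a median of 6 over all promoters. The plus strand at chr2:153649199-153649448 (Dnmt3b) and chr4:98726504-98726753 (L1td1) is printed, with the KLF word in capitals.
Dnmt3b: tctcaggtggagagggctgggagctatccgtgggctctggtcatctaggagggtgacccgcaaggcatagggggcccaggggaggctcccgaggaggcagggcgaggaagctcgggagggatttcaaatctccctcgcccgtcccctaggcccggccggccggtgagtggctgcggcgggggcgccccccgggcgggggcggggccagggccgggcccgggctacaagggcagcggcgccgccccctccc
L1td1: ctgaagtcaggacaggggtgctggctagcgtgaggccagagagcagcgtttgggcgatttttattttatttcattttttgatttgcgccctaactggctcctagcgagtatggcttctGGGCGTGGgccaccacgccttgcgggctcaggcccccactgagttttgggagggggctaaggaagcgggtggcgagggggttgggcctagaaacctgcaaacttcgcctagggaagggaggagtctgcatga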

How the data were processed

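Total RNA of 14 mouse samples in 4 groups was made into libraries with an Illumina TruSeq RNA kit and sequenced in single-end reads of 50 bases that the labels call stranded. Which aligner, counting, use of strand, statistical test and build were used is not stated in the sources used here. The authors deposited 1 comparison for each day, with a log fold change, a mean log CPM, a p-value and an adjusted p-value (FDR) per gene, per the file headers. The deposited mean log CPM is on the log2 scale, because the linear values total 1001540 (D5) and 1001340 (D10), and the fold change was taken to be log2 too. Adjusting the deposited p-values by Benjamini-Hochberg gave the deposited FDR to within 3.41e-05. No depth per sample is known.

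Identifiers were matched to RefSeq GRCm38.p6 symbols (14291 of 15108 genes at D5, 14891 of 15744 at D10, and all 32 members). The implied SE is the size of the log2 fold change over that of z from the p-value. It inherits the assumptions of the authors' test. Group levels were derived from the average CPM and the fold change, assuming that the average weighs both groups equally. Rescaling divided z, in bins of about 500 genes ordered by level, so that its median size is that of a standard normal. No member row was a repeat of another (average log2 CPM within 1e-05, log2 fold change within 0.001). Python 3.11.15, numpy 2.4.6, pandas 2.3.3 and scipy 1.17.1 were used, and the procedures were tested on simulated data.

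Members and lists were chosen with earlier results of these data known. Named in full are called members, the 5 largest differences of level in each direction, and paralog sets; from other lists, up to 4 called genes and 4 with the largest level differences. Gene families and motifs searched in sequences, and further members, were chosen after values were seen.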

Additional observations from a re-analysis of the deposited data

Results flagged for a closer look

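In 2 members the change under GLI1 differed between the stages by the test of the difference itself. For Dppa5a the log2 fold change at D10 minus that at D5 was 1.39, and for Dnmt3b it was 0.64. Both were lower in induced cultures at D5 and above 0 at D10, where neither passed on its own. Dppa5a shares 38.6% and Dnmt3b 11.5% of its 50-base windows with transcripts of other genes. The part of shared reads in these differences was not tested.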

How the results depend on the processing

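At D5, 2 members were called at an adjusted p under 0.01 (Dppa5a and Dnmt3b), 0 with Holm's adjustment and 0 with a 2-fold minimum, against 4 as reported. The other alternatives gave 4 to 6. At D10 each of the 7 alternatives gave 0. For the difference between days, an adjusted p under 0.01 left 1 member (Dppa5a) of 2. The count of members lower at D10 was 4 with a 4-fold minimum in place of 10, and 10 to 13 in the other alternatives, which included derived control or induced levels and other scalings (shifts of 0.0053 and -0.0027 on the log2 scale). The level difference changed sign on derived induced levels for L1td1 (0.32) and Zfp42 (0.29), and moved by over 1.5 times for Pou5f1 (-3.72 control, -2.28 induced) and Dppa5a (-2.45 control, -1.06 induced). The other 86 level differences, over 4 alternatives, did neither. No paired analysis was possible because the sources used here hold no value per library, and leaving out single libraries could not be run for the same reason. Members of low level were measured with wide errors, with implied SEs at D5 of 0.41 for Nanog, 0.58 for Tdgf1 and 0.62 for Klf2.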

Other observations

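The cultures also held transcripts of the Zscan4 cluster, which marks a passing 2-cell-like state of embryonic stem cells. In the authors' deposited table for D5, Zscan4c averaged 4.06, Zscan4d 3.73 and Zscan4f 4.23 on the log2 CPM scale, with log2 fold changes under GLI1 of 0.33, 0.14 and 0.30 that did not pass. None of these 3 had a row at D10. The copies are nearly identical, so single rows are uncertain. Of the 7 markers listed for this state, Tcstv1 and Tcstv3 had no row on either day. In the authors' deposited table Usp17lc averaged 0.12 at D5, with a log2 fold change of 0.47, and had no row at D10. Gm5662 averaged 2.06 at D5 and 1.05 at D10 in the authors' deposited table, with log2 fold changes of -0.37 and 0.35. None of these values passed.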
